A study of Mus musculus with 19 samples.

Results

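Kinesins are the motor proteins that walk along microtubules, most of them towards the plus end, and the genes described here are the mouse kinesin genes whose symbol is Kif followed by a number and, in some, a letter a, b or c. The genes were chosen by that symbol and by a count above 0 in at least 4 of the 19 libraries. Of 20938 genes in the deposited table, 38 had such a symbol and 36 met the count rule. The 2 left out were Kif12, with counts in 3 libraries, and Kif2b, with counts in 1 library, while the member with the fewest, Kif28, had counts in 17. All 36 members passed the filter on low counts that left 16417 genes for testing. For this description each member was put in 1 class by its textbook roles, a choice that other groupings could make differently. The classes were 15 neuronal transport, 11 mitotic and 6 cilium or hedgehog kinesins, with 4 members put in none of these.

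RNA was sequenced from the left prelimbic cortex, a part of the medial prefrontal cortex, of mice in 4 groups. SCZ mice received MK-801, an NMDA receptor blocker used to model schizophrenia, at 0.2 mg/kg by daily intraperitoneal injection for 2 weeks, and Control mice received saline in its place. In c-MSST mice the left prelimbic cortex was injected once with ferumoxytol iron oxide nanoparticles and the mice then moved freely in a pulsed magnetic field. The groups held 4 SCZ+c-MSST, 4 SCZ, 5 Control+c-MSST and 6 Control libraries, and tissue was taken on day 3 after surgery. The labels do not say whether mice without c-MSST had surgery, so surgery, injection and magnetic field cannot be told apart in the c-MSST comparisons. They give no strain, sex, age or batch and do not say that each library is a separate mouse, so p-values measure the spread between these libraries. MK-801 treatment is a drug model of schizophrenia-like behaviour and not the disease.

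In neurons, kinesin-1, kinesin-2 and kinesin-3 motors carry vesicles, mitochondria and protein complexes from the cell body along axons and into dendrites, while dynein carries cargo back. Mitotic kinesins build the spindle, move chromosomes and complete cell division, and their genes are transcribed mainly in dividing cells late in the cell cycle. Other kinesins build or trim cilia, such as the motile cilia of the ependymal cells that line the ventricles.

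Late cell-cycle genes are known to carry a promoter element called the CHR, with the letters TTTGAA, through which the DREAM complex keeps them silent in resting cells. It was searched on both strands, so that TTCAAA in the direction of the gene also counts. The search covered the 300-base RefSeq window (GRCm38.p6) of 250 bases before to 50 after each RefSeq start of a gene. A gene with more than 1 RefSeq start counted once if any of its windows held the letters. Of the 36 members, 29 are in that promoter table. The letters occurred in 9 of 10 mitotic members, 1 of 11 neuronal transport members, 1 of 5 cilium and hedgehog members and 1 of 3 other members, against 20.2% of all 27025 genes in the table. The neuronal match is in Kif1a, and the mitotic member without one is Kif18a. The CCAAT box, searched as CCAAT or ATTGG, occurred in 6 of 10 mitotic, 3 of 11 neuronal transport, 3 of 5 cilium and hedgehog and 1 of 3 other members, against 41.1% of all genes. The motifs were counted separately, whether or not they overlapped. A match is a description of letters and not a shown binding site. The 60-base stretches below show 4 mitotic promoters with the motif in capitals, and that of Kif26a, the member called higher below, which has neither motif in its window. The Kif11, Kif15, Kif22 and Kif26a stretches end at the base before a RefSeq start of the gene, and the Kif2c stretch covers bases -130 to -71 from one. RefSeq and GENCODE starts differ. In GENCODE the Kif2c stretch lies inside the gene (117159639 to 117182639). The Kif15 and Kif22 stretches run past the GENCODE starts at 122951046 and 127042471.
Kif11 (spindle motor, chr19:37376322-37376381, plus strand): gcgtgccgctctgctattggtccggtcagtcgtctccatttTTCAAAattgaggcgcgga
Kif15 (spindle motor, chr9:122951021-122951080, plus strand): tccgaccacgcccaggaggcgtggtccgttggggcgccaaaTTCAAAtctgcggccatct
Kif22 (chromosome-arm motor, chr7:127042421-127042480, minus strand): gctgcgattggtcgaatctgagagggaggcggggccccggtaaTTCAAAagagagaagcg
Kif2c (microtubule depolymerase, chr4:117178843-117178902, minus strand): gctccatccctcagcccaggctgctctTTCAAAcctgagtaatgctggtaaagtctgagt
Kif26a (no motor activity, chr12:112146148-112146207, plus strand): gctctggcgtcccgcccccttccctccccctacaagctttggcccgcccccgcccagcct
The motif begins 19 bases before the RefSeq start in Kif11 and Kif15 and 17 bases before it in Kif22, and an ATTGG lies at -45 in Kif11 and -54 in Kif22.

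The neuronal transport kinesins made up nearly all kinesin RNA in every library. Levels were compared between genes on the deposited FPKM scale, which accounts for gene length. Summed FPKM over the 36 members ran from 1290 to 1524 across libraries, and the 15 neuronal transport members held between 97.6% and 98.3% of it, with a median of 97.9%. The 11 mitotic members together held 0.113% to 0.160% (median 0.139%), the cilium and hedgehog members 0.286% to 0.431%, and the other members 1.27% to 1.95%. No library departed from this order. The small shares depend on the classing, since Kif2a (here other), Kif3a and Kif3b (here neuronal transport) could be classed otherwise. Their means were 16.9, 14.8 and 14.1 FPKM. The mitotic members summed to 1.63 to 2.25 FPKM per library and the cilium and hedgehog members to 3.85 to 6.02 FPKM.

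**Figure D1:**
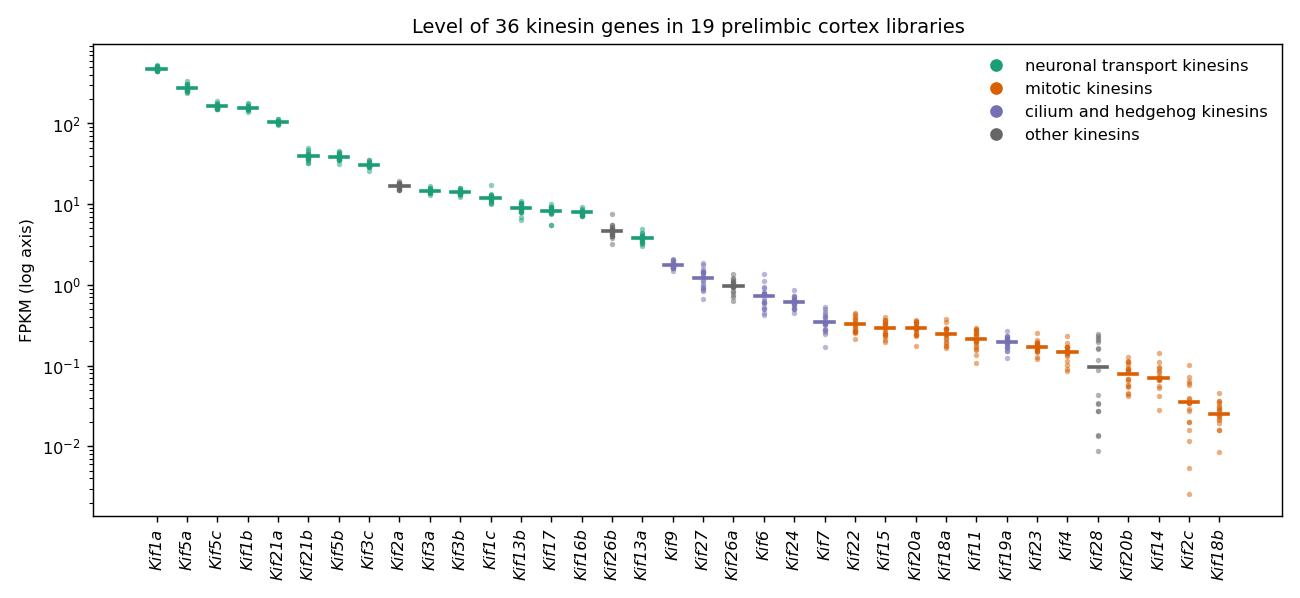
Level of each of the 36 kinesin genes on a log FPKM axis, with 1 point per library (19 libraries), a bar at the mean and colours for the classes; libraries listed at 0 FPKM are not drawn. Kif1a leads at a mean of 479 FPKM, and no mitotic member has a mean above 0.324 FPKM.

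Kif1a, the kinesin-3 that carries synaptic vesicle precursors down the axon, had the highest FPKM, at 479 ± 26.3 (SD, n = 19 libraries). Kif5a, a neuronal kinesin-1 heavy chain, followed at 275 ± 25.8 FPKM, and Kif5c, the other neuron-enriched heavy chain, at 164 ± 10.1 FPKM. Kif1b, which carries synaptic vesicle precursors and mitochondria, had 157 ± 9.19 FPKM. These leading motors serve long-range axonal transport. Kif21a, a kinesin-4 that restrains microtubule growth, had 104 ± 4.33 FPKM, and its relative Kif21b had 39.4 ± 4.50 FPKM. Kif5b, the kinesin-1 heavy chain found in all tissues, had 38.9 ± 3.65 FPKM, and Kif3c, a neuronal kinesin-2, had 30.7 ± 2.33 FPKM. Kif21b and Kif5b therefore lay within each other's spread, as did Kif5c and Kif1b.

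Among the mitotic members the mean ran from 0.0251 FPKM in Kif18b, a regulator of astral microtubules, to 0.324 FPKM in Kif22, which pushes chromosome arms outward. In counts, Kif22 had 154 to 275 per library and Kif18b 0 to 55, so fold changes of the lowest mitotic members are imprecise at this depth. Kif11, the motor that makes the spindle bipolar, averaged 0.215 ± 0.0540 FPKM, and Kif23, a cytokinesis motor, averaged 0.171 ± 0.0293 FPKM (SD, n = 19). Listed proliferation genes were also low but present: summed over 16 genes that include Mki67 and Top2a, they ran from 51.9 to 56.8 CPM in SCZ+c-MSST libraries, 54.8 to 61.4 in SCZ, 38.2 to 60.2 in Control+c-MSST and 42.8 to 73.6 in Control. CPM here is computed from the deposited counts with TMM-scaled library sizes.

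Within families the order of the members was the same in all 4 groups for kinesin-1 and for the Kif1 genes, and some shares differed. Of the summed FPKM of the 3 kinesin-1 heavy chains, Kif5a held 57.6% ± 1.52 in SCZ+c-MSST, 57.7% ± 1.23 in SCZ, 57.9% ± 0.975 in Control+c-MSST and 57.1% ± 2.20 in Control libraries (SD; n = 4, 4, 5 and 6). Kif5b held 7.94% ± 0.330 in SCZ+c-MSST, 8.57% ± 0.862 in SCZ, 7.65% ± 0.414 in Control+c-MSST and 8.48% ± 0.849 in Control libraries. Kif5a was thus the main heavy chain and Kif5b the least in all 4 groups. Of the kinesin-2 genes, Kif3c held 51.6% ± 0.461 in SCZ+c-MSST, 51.4% ± 0.905 in SCZ, 52.8% ± 0.528 in Control+c-MSST and 50.6% ± 1.82 in Control libraries. Kif3a averaged 24.6% ± 0.876 in SCZ+c-MSST, 25.2% ± 0.609 in SCZ, 23.2% ± 0.715 in Control+c-MSST and 26.1% ± 2.06 in Control libraries. Its highest Control+c-MSST share (23.94%) lay just below its lowest Control share (23.95%), so that these groups did not overlap. Kif1a held between 72.0% and 76.0% of the FPKM of Kif1a, Kif1b and Kif1c in every library. Kif1c held 1.66% to 1.82% in SCZ+c-MSST and 1.92% to 2.06% in SCZ libraries, without overlap, and 1.56% to 1.78% in Control+c-MSST and 1.67% to 2.62% in Control libraries. Kif3c also did not overlap between SCZ+c-MSST (50.9% to 52.0%) and Control+c-MSST libraries (52.3% to 53.5%). In all other cases the shares of the compared groups overlapped. These differences of shares were not tested, and no background over other gene families was counted. In CPM, groups did not overlap in 8.28% of all genes for SCZ+c-MSST against SCZ. That figure was 1.60% for Control+c-MSST against Control and 4.67% for SCZ+c-MSST against Control+c-MSST.

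Libraries were deep, with totals of 50140626 to 82416746 counts, but some differed in tissue content. Choroid plexus markers summed to 1795 CPM in Control replicate 2 and 184 CPM in Control replicate 3, against 10.7 to 30.9 CPM in all other libraries. Ttr, the marker of this list with the highest single value (1607 CPM), had a median of 0.529 CPM and was at 0 in 1 library. Markers of myelinating oligodendrocytes, which make the axon's insulating sheath, summed to 934 CPM in Control+c-MSST replicate 6 and to 2132 CPM or more in every other library. Striatal neuron markers summed to 1700 to 3761 CPM in SCZ+c-MSST and 2498 to 3281 CPM in SCZ libraries, against 568 to 2470 CPM in Control+c-MSST and 423 to 2952 CPM in Control libraries. Septal and medial forebrain markers summed to 28.0 to 34.1 CPM in SCZ+c-MSST and 33.6 to 95.8 CPM in SCZ libraries, and to 24.7 to 35.7 CPM in Control+c-MSST and 25.8 to 73.4 CPM in Control libraries. SCZ replicates 2, 3 and 5 and Control replicates 2, 4 and 5 were the highest 6 of the 19 libraries in these markers. Excitatory neuron markers of cortex were high in all groups, from 4835 to 7641 CPM. These libraries enter all fits below unless it is stated that they were left out, and in such bulk tissue fewer cells of a type and less RNA per cell cannot be told apart.

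c-MSST in saline mice, compared as Control+c-MSST against Control, was the only comparison in which edgeR called any gene of the table, at a Benjamini-Hochberg adjusted p under 0.05. It called 54 of 16417 genes, or 0.329%, and 2 of the 36 kinesins were among them: Kif26a rose and Kif5b fell. The called share was 0.231% for higher and 0.0975% for lower genes.

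Kif26a encodes a kinesin-11 relative that binds microtubules without moving along them and, in mouse enteric neurons, restrains growth factor signalling through Ret. Its gene lies on chromosome 12 from 112146208 to 112181747 on the plus strand (GRCm38), and no other annotated gene overlaps it. Kif26a had 13.9, 12.3, 16.2, 16.2 and 14.5 CPM in the Control+c-MSST libraries (replicates 1, 2, 4, 6 and 7), against a lowest of 9.53, a median of 10.1 and a highest of 12.3 CPM in the 6 Control libraries. Only the lowest Control+c-MSST library and the highest Control library met, and the other 4 and 5 libraries were apart. The log2 fold change was 0.49 (SE 0.08; edgeR adjusted p = 0.0225), a rise of 1.40-fold. Without Control+c-MSST replicate 6 it was 0.45 and the call was lost (edgeR adjusted p = 0.110). The call was also lost without Control+c-MSST replicate 4 (0.0904), Control+c-MSST replicate 7 (0.0713) or Control replicate 2 (0.0581), as edgeR adjusted p-values. With scores for striatal, septal and choroid plexus markers as 3 covariates it was 0.45 (edgeR adjusted p = 0.0730).

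Kif26a also stood higher in both MK-801 groups than in Control libraries. It had 13.4, 12.0, 13.2 and 13.2 CPM in SCZ+c-MSST libraries (replicates 2, 3, 4 and 5) and 12.5, 12.1, 14.2 and 14.3 CPM in SCZ libraries (replicates 1, 2, 3 and 5). The SCZ libraries met the Control range only at its top. For SCZ against Control the log2 fold change was 0.35 (SE 0.09). It was not called by edgeR (adjusted p = 0.150) and was called by DESeq2 (adjusted p = 0.0321). For SCZ+c-MSST against SCZ it was -0.03 (SE 0.10; edgeR adjusted p = 0.966). The interaction, which subtracts the c-MSST difference of saline mice from that of MK-801 mice, was -0.52 (SE 0.13; unadjusted p = 0.000786, adjusted p = 0.386 in edgeR), so a difference between the 2 effects was not called. SCZ and Control+c-MSST are compared with the same 6 Control libraries, in which Kif26a was lowest of the 4 groups.

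**Figure D2:**
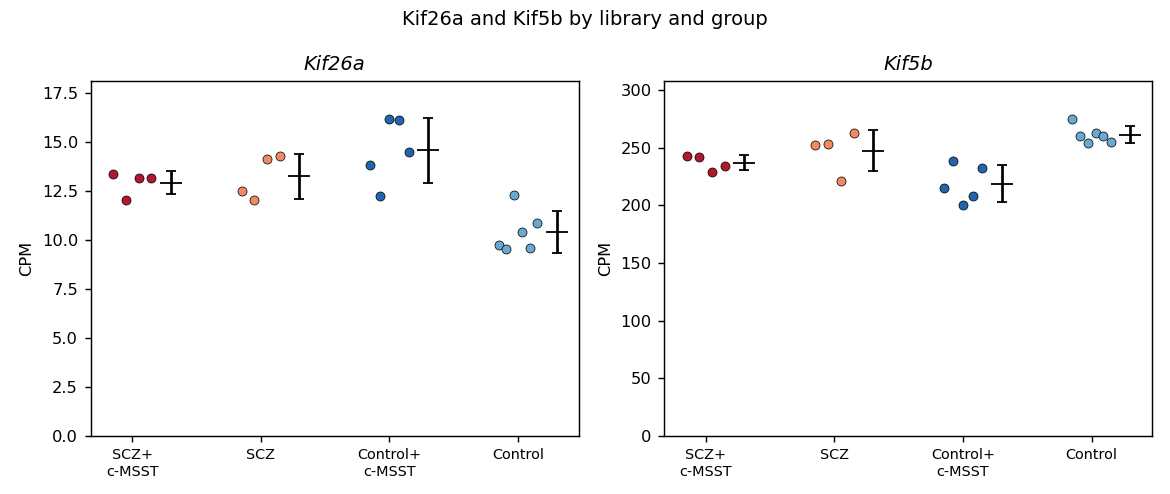
CPM of Kif26a and Kif5b in every library of the 4 groups, from an axis that starts at 0; points are libraries and bars the mean ± SD (n = 4, 4, 5 and 6). Kif26a averaged 14.6 CPM in Control+c-MSST and 10.4 CPM in Control libraries, and Kif5b averaged 219 CPM in Control+c-MSST and 262 CPM in Control libraries.

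Kif5b, the ubiquitous kinesin-1 heavy chain that moves mitochondria and many vesicles, had 215, 238, 200, 208 and 232 CPM in the Control+c-MSST libraries (replicates 1, 2, 4, 6 and 7), against a lowest of 255, a median of 260 and a highest of 275 CPM in Control libraries. The groups did not overlap. Its log2 fold change was -0.26 (SE 0.05; edgeR adjusted p = 0.0386). It had 243, 242, 229 and 234 CPM in SCZ+c-MSST libraries and 252, 253, 222 and 263 CPM in SCZ libraries, so 3 of 4 SCZ libraries lay above all Control+c-MSST libraries and SCZ replicate 3 lay among them. The SCZ+c-MSST against SCZ difference was -0.06 (SE 0.06; edgeR adjusted p = 0.838), and the interaction was 0.19 (SE 0.08; unadjusted p = 0.0188, adjusted p = 0.623). The gene lies on chromosome 18 from 6201002 to 6242174 on the minus strand (GRCm38) and has opposite-strand annotations, Gm17036 among them, whose reads cannot be told apart if the counting did not use strand. The Kif5b call is near the threshold: it was kept in 7 of the 19 fits that left out 1 library, with edgeR adjusted p-values from 0.0225 to 0.126 over the 19, and leaving out Control+c-MSST replicate 6 gave 0.126 at a log2 fold change of -0.24. On log2(FPKM + 1), limma gave -0.18 (adjusted p = 0.197).

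The other neuronal transport kinesins in Control+c-MSST against Control showed small differences in both directions, none called by edgeR. At an unadjusted edgeR p under 0.05 there were 9 of the 15 neuronal members, 3 higher and 6 lower, in a comparison where 16.6% of all genes passed (7.86% higher, 8.70% lower). Since genes with high counts passed more often, the same was counted over genes with a mean of at least 40 CPM, a minimum chosen after the values were seen: 9 of 16 members (56.2%) and 24.5% of 5421 genes passed. In the other comparisons the same members gave 3 of 16 against 18.4% for SCZ against Control, 1 of 16 against 7.77% for SCZ+c-MSST against SCZ, 6 of 16 against 13.1% for SCZ+c-MSST against Control+c-MSST, and 4 of 16 against 7.8% for the interaction. The median log2 fold change of the 15 was -0.10 and 10 of them were negative, against a median of -0.01 and 52.9% negative over all genes tested.

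Higher in this sense were Kif3b, Kif3c and Kif21b. Their families did not move together: the kinesin-2 Kif3a was at -0.11 and the kinesin-4 Kif21a at -0.05. Kif3b, which pairs with Kif3a, had 122, 120, 125, 120 and 129 CPM in Control+c-MSST libraries, against a lowest of 112, a median of 115 and a highest of 119 CPM in Control libraries, so that the groups did not overlap. Its log2 fold change was 0.10 (SE 0.03; edgeR adjusted p = 0.174). Groups did not overlap in 2 of 36 members, Kif5b and Kif3b, against 1.60% of all genes. Kif3c, the alternative partner of Kif3a in neurons, averaged 404 ± 9.57 CPM in Control+c-MSST and 373 ± 17.2 CPM in Control libraries (SD, n = 5 and 6; log2 0.11, edgeR adjusted p = 0.150). Kif21b, a dendritic kinesin-4, averaged 261 ± 21.2 CPM in Control+c-MSST and 237 ± 23.3 CPM in Control libraries (log2 0.14, edgeR adjusted p = 0.272).

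Lower in the same sense were Kif5b, Kif5c, Kif13a, Kif13b, Kif16b and Kif1c, of which edgeR called Kif5b alone. Kif13a, a motor of recycling endosomes, had 49.5, 53.1, 48.4, 40.7 and 50.8 CPM in Control+c-MSST libraries, against a lowest of 50.1, a median of 59.8 and a highest of 62.8 CPM in Control libraries. The groups overlapped at the edges, with a log2 fold change of -0.25 (SE 0.07; edgeR adjusted p = 0.103). Kif13b, which carries membrane scaffold proteins, had 72.9, 74.0, 60.7, 49.3 and 68.1 CPM in Control+c-MSST libraries, against a lowest of 65.1, a median of 83.7 and a highest of 90.8 CPM in Control libraries (log2 -0.33, SE 0.10; edgeR adjusted p = 0.114). DESeq2 called both (adjusted p = 0.0419 and 0.0425), for 4 kinesins in all among the 3.46% of genes it called. Kif1c, a kinesin-3 of dense-core vesicles that is expressed in many tissues, averaged 108 ± 7.41 CPM in Control+c-MSST and 128 ± 18.4 CPM in Control libraries (SD, n = 5 and 6), with its highest level, 164 CPM, in Control replicate 2; its log2 fold change was -0.25 with all libraries and -0.15 without Control replicates 2 and 3.

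Myelin markers, among other lists, moved with these genes. All 8 were negative in Control+c-MSST against Control, with a median log2 fold change of -0.55 and none called by edgeR, and their sum ran from 934 to 2914 CPM in Control+c-MSST and from 2342 to 4148 CPM in Control libraries. Control+c-MSST replicate 6, the lowest library in myelin markers, was also the lowest of all 19 in Kif13a (40.7 CPM) and Kif13b (49.3 CPM). Without it the log2 fold changes were -0.20 for Kif13a and -0.25 for Kif13b. All 7 septal and medial forebrain markers were also negative in this comparison, with a median of -0.84 and none called by edgeR. So were all 8 choroid plexus markers (median -3.23), which were highest in Control replicates 2 and 3, and all 7 astrocyte markers (median -0.11), none called. Excitatory neuron and microglia markers were mostly positive, in 4 of 6 and 6 of 8. The part of myelin, septal, choroid plexus and astrocyte content in these differences was not tested.

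**Figure D3:**
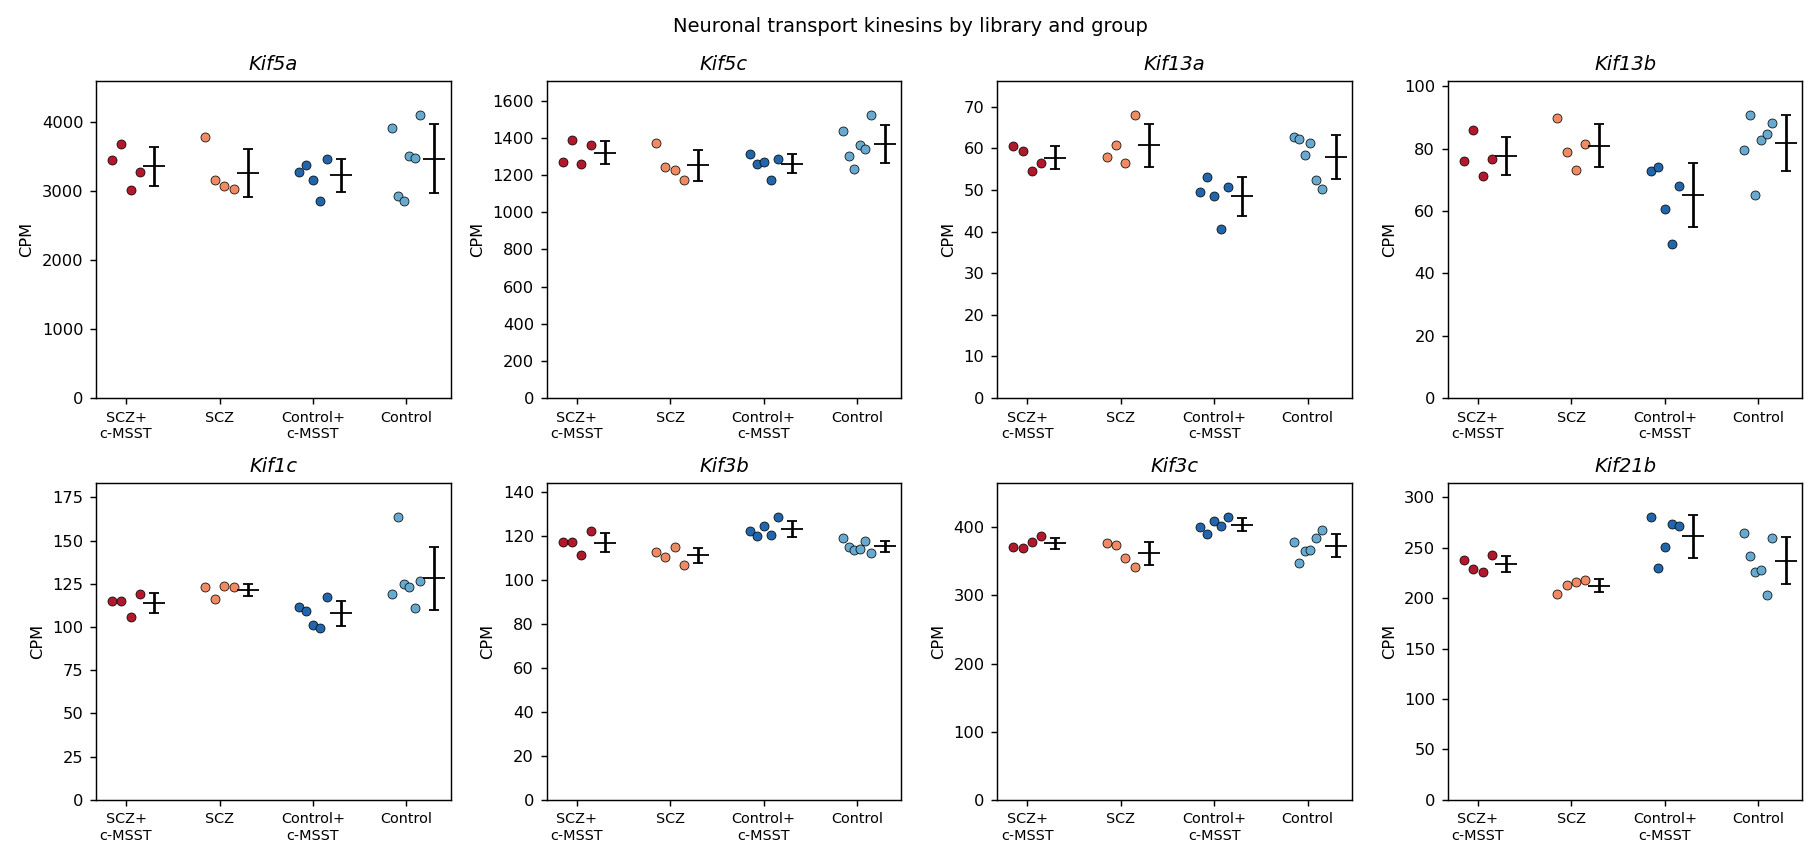
CPM of 8 neuronal transport kinesins in every library of the 4 groups, on axes that start at 0; points are libraries and bars the mean ± SD (n = 4, 4, 5 and 6). In Kif13a and Kif13b the Control+c-MSST mean is the lowest of the 4, and the lowest point in both is replicate 6, at 40.7 and 49.3 CPM.

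Kif1a, Kif1b, Kif5a and Kif5c were not called in this comparison, and of these Kif5c alone had an unadjusted edgeR p under 0.05. Kif1a averaged 2116 ± 49.5 CPM in Control+c-MSST and 2116 ± 210 CPM in Control libraries, and Kif1b 1916 ± 33.9 CPM in Control+c-MSST and 1862 ± 70.4 CPM in Control libraries (SD, n = 5 and 6). Kif5a averaged 3228 ± 238 CPM in Control+c-MSST and 3470 ± 503 CPM in Control libraries. Their log2 fold changes were 0.00, 0.04 and -0.10 (edgeR adjusted p = 0.997, 0.593 and 0.613). Without Control replicates 2 and 3, that of Kif5a was -0.22 (SE 0.08; edgeR adjusted p = 0.193). Kif5c averaged 1262 ± 52.2 CPM in Control+c-MSST and 1368 ± 103 CPM in Control libraries, and its difference was -0.12 with all libraries and -0.17 without those 2 (edgeR adjusted p = 0.286 and 0.156).

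**Figure D4:**
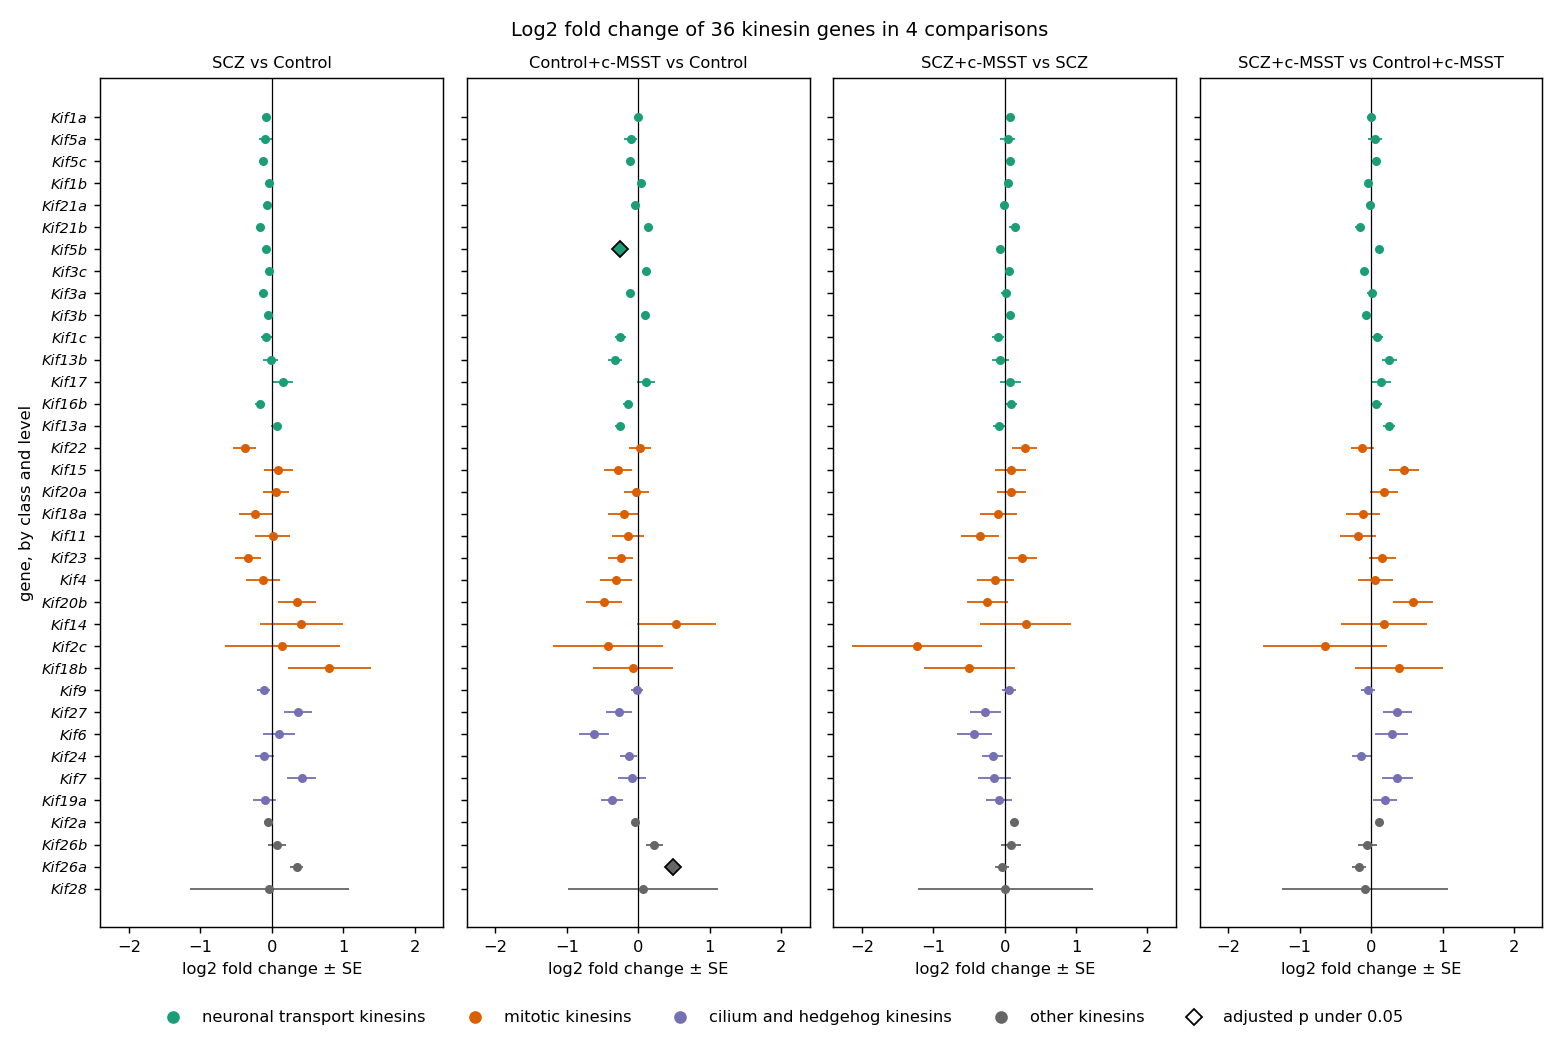
Log2 fold change ± SE of the 36 kinesins in 4 comparisons, ordered by class and level, with diamonds at an edgeR adjusted p under 0.05. The only diamonds are Kif26a (0.49) and Kif5b (-0.26) in Control+c-MSST against Control, and error bars widen for the low mitotic members.

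Of the members outside these classes, Kif26b, a relative of Kif26a known for its role in kidney development in mice, averaged 33.3 ± 7.23 CPM in Control+c-MSST and 28.5 ± 4.42 CPM in Control libraries (log2 0.22, SE 0.12; edgeR adjusted p = 0.360). Kif2a averaged 89.8 ± 4.62 CPM in Control+c-MSST and 92.3 ± 5.13 CPM in Control libraries (log2 -0.04, SE 0.04). Kif28 was at 0 in some libraries and had at most 73 counts, and its log2 fold change of 0.07 has an SE of 1.05. In the annotation, Ahctf1 overlaps Kif28 on the same strand. Of the neuronal transport members, Kif3a, the shared subunit of the kinesin-2 pairs, averaged 174 ± 6.30 CPM in Control+c-MSST and 188 ± 21.0 CPM in Control libraries (log2 -0.11, SE 0.06, edgeR adjusted p = 0.344).

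No mitotic kinesin was called in any comparison. For Control+c-MSST against Control, 9 of 11 had a negative log2 fold change, with a median of -0.21, and none had an unadjusted edgeR p under 0.05. Kif20b, a cytokinesis motor, averaged 0.928 ± 0.244 CPM in Control+c-MSST and 1.29 ± 0.424 CPM in Control libraries (log2 -0.48, SE 0.25; edgeR adjusted p = 0.353). Kif15, a spindle motor that can stand in for Kif11, averaged 1.69 ± 0.269 CPM in Control+c-MSST and 2.06 ± 0.687 CPM in Control libraries (log2 -0.28, SE 0.19; edgeR adjusted p = 0.496). The positive mitotic members were Kif14, a cytokinesis motor (0.53, SE 0.55), and Kif22 (0.02, SE 0.15), and the remaining 7, among them Kif11, Kif4, Kif18a and Kif20a, lay between -0.43 and -0.02. The 16 proliferation markers leaned the same way in this comparison, 12 of 16 negative with a median of -0.17 and none called. For SCZ+c-MSST against SCZ, 14 of 16 were negative (median -0.20), while the mitotic kinesins split into 5 positive and 6 negative. For SCZ against Control and for SCZ+c-MSST against Control+c-MSST, 11 of 16 proliferation markers and 7 of 11 mitotic kinesins were positive. The kinetochore kinesin Cenpe, which the symbol rule leaves out, had 1.16 to 2.77 CPM in Control+c-MSST and 2.60 to 4.76 CPM in Control libraries (log2 -0.61, SE 0.21; edgeR adjusted p = 0.165).

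The 6 cilium and hedgehog kinesins all had negative log2 fold changes in Control+c-MSST against Control, with a median of -0.20, and none was called. Kif6, which mouse ependymal cilia need for normal flow of cerebrospinal fluid, had 2.54, 3.51, 2.83, 2.83 and 4.83 CPM in Control+c-MSST libraries, against a lowest of 3.17, a median of 4.53 and a highest of 8.12 CPM in Control libraries. The groups overlapped, and the log2 fold change was -0.62 (SE 0.21; edgeR adjusted p = 0.160). Kif19a, which shortens ciliary microtubules, averaged 4.43 ± 0.910 CPM in Control+c-MSST and 5.74 ± 1.11 CPM in Control libraries (log2 -0.37, SE 0.16; edgeR adjusted p = 0.240). Kif9, a motor of motile cilia and sperm tails, averaged 7.34 ± 0.455 CPM in Control+c-MSST and 7.43 ± 0.797 CPM in Control libraries (log2 -0.02, SE 0.09). Kif7, Kif24 and Kif27 lay at -0.09, -0.13 and -0.27.

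Ependymal markers were lower in the same comparison as Kif6, but the 2 did not run in parallel over the libraries. All 10 listed cilium markers of ependymal cells were negative in this comparison, with a median log2 fold change of -0.94, and their sum ran from 28.4 to 43.0 CPM in Control+c-MSST and from 28.97 to 80.9 CPM in Control libraries, while Tmem212, a marker of the list, was at 0 in 3 libraries and Ccdc153 in 1. Control replicate 2 held the highest sum and the highest Kif6. Within Control+c-MSST, replicate 7 had the highest Kif6 (4.83 CPM) at a marker sum of 32.9 CPM. Control+c-MSST replicate 4 had the highest sum of that group (43.0 CPM) at 2.83 CPM of Kif6. Without Control replicates 2 and 3 the log2 fold change of Kif6 was -0.33, and with tissue scores as covariates it was -0.30. The part of ependymal content in the Kif6 difference was not tested.

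**Figure D5:**
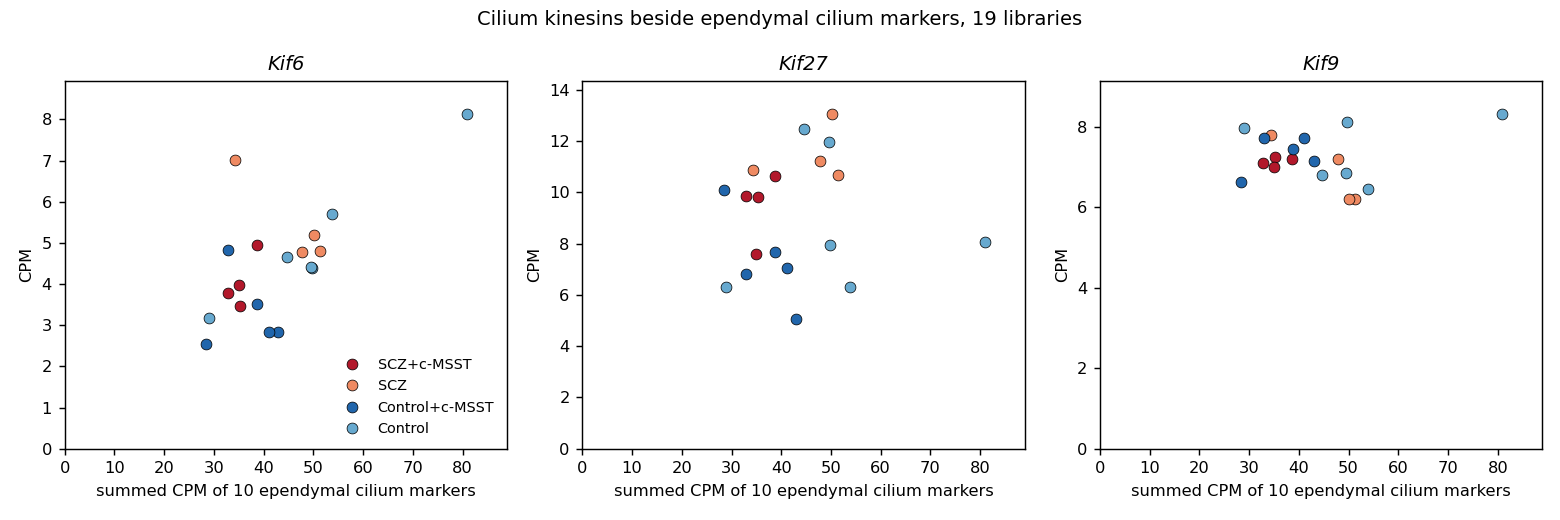
CPM of Kif6, Kif27 and Kif9 against the summed CPM of 10 ependymal cilium markers in the 19 libraries, with colours for the groups. The point farthest right, at 80.9 CPM of markers, is Control replicate 2, which is highest in Kif6 (8.12 CPM) but in the middle of the Control range in Kif27 (8.04 CPM).

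MK-801 in mice without c-MSST, compared as SCZ against Control, gave no called kinesin and no called gene in the table (0%) by edgeR. At an unadjusted edgeR p under 0.05 there were 5 of 36 members, against 13.5% of all genes: 1 higher, against 6.09%, and 4 lower, against 7.43%. DESeq2 called Kif26a alone among the kinesins, with 1.84% of genes called. The 15 neuronal transport members had a median log2 fold change of -0.08 with 13 negative, against a median of 0.00 and 49.9% negative over all genes tested.

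Kif21b had 204, 213, 216 and 218 CPM in SCZ libraries, against a lowest of 203, a median of 235 and a highest of 265 CPM in Control libraries. The SCZ libraries lay close together in the lower part of the Control range, with a log2 fold change of -0.16 (SE 0.07; edgeR adjusted p = 0.311). Kif16b, a motor of early endosomes, averaged 44.6 ± 1.71 CPM in SCZ and 49.8 ± 5.32 CPM in Control libraries (log2 -0.16, SE 0.07; edgeR adjusted p = 0.327). Kif5c averaged 1254 ± 83.3 CPM in SCZ and 1368 ± 103 CPM in Control libraries (log2 -0.12, SE 0.06; edgeR adjusted p = 0.349). All 12 striatal neuron markers were positive in this comparison, with a median of 1.13, and all 6 excitatory neuron markers were negative, with a median of -0.27. All 8 choroid plexus markers were negative (median -2.14) and all 7 septal and medial forebrain markers positive (median 0.42), none called by edgeR. The part of regional tissue and choroid plexus content in the kinesin differences was not tested.

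Kif17 carries NMDA receptor subunits along dendrites and is of interest beside an NMDA receptor blocker; it was singled out after its values were seen. It had 56.0, 47.8, 49.2 and 48.3 CPM in SCZ libraries. In Control libraries it had 52.4, 31.3, 31.7, 51.8, 51.5 and 51.8 CPM (replicates 1, 2, 3, 4, 5 and 7). Control replicates 2 and 3, those with the choroid plexus markers, were the lowest of all 19 libraries, and the other 17 ran from 46.1 to 59.4 CPM. The log2 fold change of SCZ against Control was 0.16 (SE 0.13, edgeR adjusted p = 0.647) with all libraries and -0.04 (SE 0.07, edgeR adjusted p = 0.821) without those 2. Sh2d5 overlaps Kif17 on the same strand in the annotation used here, so reads of the overlap may not be told apart.

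Of the mitotic members in SCZ against Control, Kif22 had 2.19 to 2.97 CPM in the 4 SCZ libraries, against a lowest of 2.87, a median of 3.31 and a highest of 4.24 CPM in Control libraries. The groups overlapped only at the edges (log2 -0.38, SE 0.16; edgeR adjusted p = 0.308). Kif23 averaged 1.85 ± 0.176 CPM in SCZ and 2.34 ± 0.674 CPM in Control libraries (log2 -0.34, SE 0.18; edgeR adjusted p = 0.437). Kif18b was the member whose groups did not overlap, 1 of 36 against 2.84% of all genes; its SCZ libraries had 0.481 to 0.639 CPM, and its Control libraries 0 to 0.445 CPM (log2 0.81, SE 0.58; edgeR adjusted p = 0.581). The class median was 0.06, with 7 of 11 positive, and it changed sign under some alternatives (-0.055 to 0.139 over all of them). Kif7, which scaffolds hedgehog signalling at the cilium tip, averaged 3.02 ± 0.499 CPM in SCZ and 2.25 ± 0.507 CPM in Control libraries (log2 0.42, SE 0.21; edgeR adjusted p = 0.386). Kif27, its close relative in motile cilia, averaged 11.5 ± 1.08 CPM in SCZ and 8.84 ± 2.72 CPM in Control libraries (log2 0.37, SE 0.20; edgeR adjusted p = 0.416).

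c-MSST in MK-801 mice, compared as SCZ+c-MSST against SCZ, gave no called kinesin among 0% of genes called by edgeR, and DESeq2 called no kinesin among 0.378%. At an unadjusted edgeR p under 0.05 there was 1 of 36 members, higher, against 7.56% of all genes (3.86% higher, 3.7% lower). That member was Kif2a, a microtubule depolymerase that prunes axon branches in mice. It had 94.9, 96.0, 101 and 96.2 CPM in SCZ+c-MSST libraries, against 84.8, 89.2, 88.0 and 93.1 CPM in SCZ libraries. The groups did not overlap, and the log2 fold change was 0.13 (SE 0.05, edgeR unadjusted p = 0.0229, adjusted p = 0.591). In the annotation, Gm24431 overlaps Kif2a on the same strand and Dimt1 on the opposite strand, so reads of the overlaps may not be told apart. Groups did not overlap in 4 of 36 members, Kif2a, Kif21b, Kif23 and Kif27, against 8.28% of all genes. Kif26b, of the same class as Kif2a, averaged 32.0 ± 1.24 CPM in SCZ+c-MSST and 30.0 ± 2.59 CPM in SCZ libraries (log2 0.09, SE 0.14).

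Kif21b had 238, 229, 226 and 243 CPM in SCZ+c-MSST libraries, against 204, 213, 216 and 218 CPM in SCZ libraries. Every SCZ+c-MSST library was above every SCZ library for Kif21b (log2 0.14, SE 0.07; edgeR adjusted p = 0.701). Kif3b averaged 117 ± 4.47 CPM in SCZ+c-MSST and 111 ± 3.54 CPM in SCZ libraries (log2 0.07; edgeR adjusted p = 0.708). Kif27 had 9.80, 10.6, 9.87 and 7.58 CPM in SCZ+c-MSST libraries, against 10.9, 11.2, 10.7 and 13.0 CPM in SCZ libraries (log2 -0.27, SE 0.22; edgeR adjusted p = 0.806). Kif6 averaged 4.04 ± 0.644 CPM in SCZ+c-MSST and 5.44 ± 1.06 CPM in SCZ libraries (log2 -0.43, SE 0.24; edgeR adjusted p = 0.729). All 10 ependymal markers were negative here too, with a median of -0.59, and their sum ran from 32.9 to 38.7 CPM in SCZ+c-MSST and 34.3 to 51.3 CPM in SCZ libraries; their part in Kif6 and Kif27 was not tested. All 6 excitatory neuron markers were positive in this comparison, with a median of 0.21, all 7 septal markers were negative, with a median of -1.04 and 5 at an unadjusted edgeR p under 0.05 but none called, and all 8 myelin markers were negative, with a median of -0.26. Their part in the differences of Kif2a, Kif21b and the other kinesins was not tested. Of the mitotic members, Kif22 averaged 3.18 ± 0.581 CPM in SCZ+c-MSST and 2.61 ± 0.328 CPM in SCZ libraries (log2 0.28, edgeR adjusted p = 0.751), and Kif2c averaged 0.204 ± 0.130 CPM in SCZ+c-MSST and 0.479 ± 0.371 CPM in SCZ libraries (log2 -1.22, SE 0.91; edgeR adjusted p = 0.797). The neuronal median was 0.04 with 5 of 15 negative, and the mitotic median -0.09 with 6 of 11 negative (-0.209 to 0.084 over the alternatives), against -0.01 and 52.6% negative over all genes tested.

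MK-801 in mice with c-MSST, compared as SCZ+c-MSST against Control+c-MSST, also gave no called kinesin among 0% of genes called by edgeR and none among the 0.454% that DESeq2 called. At an unadjusted edgeR p under 0.05 there were 8 of 36 members, 6 higher and 2 lower, against 11% of all genes (5.46% higher, 5.51% lower). Kif13a had 60.6, 59.3, 54.6 and 56.6 CPM in SCZ+c-MSST libraries, against 49.5, 53.1, 48.4, 40.7 and 50.8 CPM in Control+c-MSST libraries. The groups did not overlap (log2 0.25, SE 0.08; edgeR adjusted p = 0.311). Kif3c had 371, 369, 379 and 387 CPM in SCZ+c-MSST libraries, against 401, 390, 409, 403 and 416 CPM in Control+c-MSST libraries, again without overlap (log2 -0.10, SE 0.04; edgeR adjusted p = 0.407). Of the mitotic members, Kif15 had 2.14 to 2.47 CPM in SCZ+c-MSST and 1.44 to 2.08 CPM in Control+c-MSST libraries (log2 0.46, SE 0.21; edgeR adjusted p = 0.441), and Kif20b averaged 1.39 ± 0.360 CPM in SCZ+c-MSST and 0.928 ± 0.244 CPM in Control+c-MSST libraries (log2 0.59, SE 0.27; edgeR adjusted p = 0.445). Of the other classes, Kif2a was at 0.11 (SE 0.05), Kif26a at -0.17 (SE 0.09), and Kif7 and Kif27 both at 0.37 (SE 0.22 and 0.21), none called by edgeR. Groups did not overlap in 3 of 36 members, Kif13a, Kif3c and Kif15, against 4.67% of all genes. Myelin markers were positive in 8 of 8, with a median of 0.40, and striatal neuron markers in 12 of 12, with a median of 1.09; their part in these differences was not tested. This comparison and that of Control+c-MSST with Control share the 5 Control+c-MSST libraries, so genes low in those libraries differ in both. The neuronal median was 0.06 with 6 of 15 negative and the mitotic median 0.16 with 4 of 11 negative (-0.047 to 0.223 over the alternatives), against 0.00 and 50.1% negative over all genes tested.

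The interaction gave no called kinesin among 0% of genes called by edgeR and none among the 0.244% that DESeq2 called, and 5 of 36 members had an unadjusted edgeR p under 0.05, 4 positive and 1 negative, against 7.29% of all genes (3.9% positive, 3.39% negative). Besides Kif26a and Kif5b these were Kif2a (0.17, SE 0.07), Kif5c (0.19, SE 0.08) and Kif16b (0.23, SE 0.10), with edgeR adjusted p-values of 0.637, 0.643 and 0.651. The neuronal median was 0.13 with 4 of 15 negative, against a median of 0.00 and 49.7% negative over all genes tested. Of the cilium members, Kif19a was at 0.29 (SE 0.24) and Kif6 at 0.19 (SE 0.32). Among mitotic members the smallest p-values were in Kif23 (0.49, SE 0.26; edgeR adjusted p = 0.716) and Kif15 (0.37, SE 0.29; edgeR adjusted p = 0.813).

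None of the genes listed as partners and relatives of these motors was called by edgeR in any comparison. They were listed as 30 light chains and cargo adaptors, 25 dynein and dynactin genes and 5 kinesins outside the symbol rule. In Control+c-MSST against Control, 17 of 30 adaptors and 17 of 25 dynein and dynactin genes were positive, with medians of 0.02 and 0.04. Ppfia1 came closest to the threshold; this gene of a liprin scaffold that binds Kif1a had 46.9 ± 2.74 CPM in Control+c-MSST and 54.1 ± 3.02 CPM in Control libraries (SD, n = 5 and 6; log2 -0.20, SE 0.05; edgeR adjusted p = 0.0652). Rhot2, a mitochondrial anchor for kinesin-1, averaged 80.8 ± 1.71 CPM in Control+c-MSST and 73.4 ± 4.45 CPM in Control libraries (log2 0.14, SE 0.04; edgeR adjusted p = 0.139). Nde1, a dynein regulator, averaged 10.3 ± 2.41 CPM in Control+c-MSST and 14.8 ± 3.46 CPM in Control libraries (log2 -0.53, SE 0.16; edgeR adjusted p = 0.117). In SCZ against Control, Bicd2, a dynein adaptor, came closest, at 77.9 ± 1.31 CPM in SCZ and 88.9 ± 4.88 CPM in Control libraries (SD, n = 4 and 6; log2 -0.19, SE 0.05; edgeR adjusted p = 0.148). For SCZ+c-MSST against SCZ, Kbtbd8 came closest, with 11.0 to 11.4 CPM in SCZ+c-MSST and 14.6 to 16.7 CPM in SCZ libraries (log2 -0.48, SE 0.12, edgeR adjusted p = 0.302). Kbtbd8 was counted on the adaptor list, but no link of its product to kinesins is shown here. Trak1, the adaptor that links kinesin-1 to mitochondria, followed at 285 ± 3.53 CPM in SCZ+c-MSST and 256 ± 11.2 CPM in SCZ libraries (SD, n = 4 each, log2 0.16, SE 0.05, edgeR adjusted p = 0.489). Between the c-MSST groups, Kidins220, a scaffold for neurotrophin receptors that kinesin-1 carries, averaged 548 ± 13.8 CPM in SCZ+c-MSST and 495 ± 24.4 CPM in Control+c-MSST libraries (SD, n = 4 and 5; log2 0.15, SE 0.05; edgeR adjusted p = 0.317). Dynlt3, a dynein light chain, averaged 106 ± 4.67 CPM in SCZ+c-MSST and 93.6 ± 5.53 CPM in Control+c-MSST libraries (log2 0.18, SE 0.06; edgeR adjusted p = 0.342).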

How the data were processed

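RNA-seq libraries (stranded total RNA kit, per the labels' protocols) from left prelimbic cortex were put in groups by their titles. The submitters' processing notes list StringTie 1.3.5, Picard 2.18.29, STAR 2.7.7a and fastp 0.19.5, and build mm10. The annotation and the strand setting of the counting step are not given in the sources used here. Deposited by the authors were estimated counts per gene, which were whole numbers as found. The authors also deposited FPKM values, scaled to gene length and depth. 

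The estimated counts were tested with edgeR 4.0.16 (R 4.3.3): filterByExpr, TMM, a robust quasi-likelihood fit over all 19 libraries, 2-sided, with Benjamini-Hochberg adjustment over 16417 genes. SE is the absolute log2 fold change over the square root of F. The fit was tested on simulated data. Alternatives were the Wald test of DESeq2 1.42.0, edgeR with DESeq2-style size factors, no filter, a mean of at least 1 CPM, a replicate block, only the 2 groups compared, limma 3.58.1 on log2(FPKM + 1) and log2(FPKM + 0.1), striatal, septal and choroid plexus marker scores as 3 covariates (the tissue scores), and libraries left out. Gene positions are from GENCODE on GRCm38, and promoter sequences from RefSeq. A count of 0 allows up to 3 counts, 0.0349 to 0.0620 CPM, for counting error only.

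The members, classes and lists were chosen with earlier results of these data known. Named were called members, the 2 members per class with the smallest p in each comparison and the 6 members with the highest mean FPKM. In the partner lists, genes among the 2 with the smallest p were named. All other members given with values (Kif1c, Kif3a, Kif4, Kif9, Kif11, Kif13b, Kif14, Kif17, Kif18a, Kif18b, Kif20a, Kif24 and Kif28), and Rhot2 and Cenpe, were added once their values were known.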

Additional observations from a re-analysis of the deposited data

Results flagged for a closer look

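In 92 sets of 1 named kinesin in 1 group, 5 had a library far from the others of its group (Dixon's criterion), and chance gives about 1 in 20. Kif26a in SCZ+c-MSST replicate 3 had 12.0 CPM, against 13.2 to 13.4 CPM in the other SCZ+c-MSST libraries. Kif5a in SCZ replicate 1 had 3784 CPM, against 3034 to 3159 CPM in the other SCZ libraries. Kif15 in SCZ replicate 2 had 1.74 CPM, against 2.33 to 2.37 CPM in the other SCZ libraries. Kif21a in Control+c-MSST replicate 4 had 389 CPM, against 371 to 375 CPM in the other Control+c-MSST libraries. Kif23 in Control replicate 1 had 3.62 CPM, against 1.85 to 2.45 CPM in the other Control libraries. The 5 flags fall in 5 genes and 5 libraries.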

How the results depend on the processing

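Control+c-MSST against Control was the comparison whose kinesin calls moved. Against 2 kinesins and 54 genes called, DESeq2 called 4 and 567, limma on log2(FPKM + 1) called 1 and 259, limma on log2(FPKM + 0.1) 1 and 250, the 2 groups alone 0 and 0, and 3 tissue scores as covariates 0 and 7. Without Control replicates 2 and 3 the counts were 1 and 16, and also without Control+c-MSST replicate 6, an alternative chosen after seeing the data, 0 and 5. Leaving out 1 library at a time gave 0 to 3 kinesins and 0 to 314 genes, with 0 kinesins without Control+c-MSST replicate 4, 6 or 7 or Control replicate 2, and 0 genes without Control+c-MSST replicate 6. Kif26a was called under 22 of 30 alternatives, with log2 fold changes from 0.27 to 0.54, and Kif5b under 11 of 30, from -0.29 to -0.18; neither changed sign.

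In the other comparisons no kinesin was called except Kif26a in SCZ against Control by DESeq2 (1). Over all genes, SCZ against Control gave 243 calls by DESeq2, 1 with the 2 groups alone, 1 and 1 by limma, 1 with tissue scores and 0 to 94 without 1 library, with 94 without Control replicate 4. SCZ+c-MSST against SCZ gave 62 by DESeq2, 31 with the 2 groups alone, 2 and 2 by limma and 0 to 2 without 1 library. SCZ+c-MSST against Control+c-MSST gave 73 by DESeq2, 1 without Control replicates 2 and 3 and 0 to 1 without 1 library, and the interaction 40, 1 and 0 to 1. The neuronal median was -0.017 under both limma fits in Control+c-MSST against Control, -0.039 under both in SCZ+c-MSST against Control+c-MSST, where it changed sign, and -0.054 with tissue scores in SCZ+c-MSST against SCZ, where it changed sign, as it did under both limma fits (-0.012 and -0.013). The mitotic median changed sign in 3 comparisons, ranging from -0.055 to 0.139 in SCZ against Control, -0.209 to 0.084 in SCZ+c-MSST against SCZ and -0.047 to 0.223 in SCZ+c-MSST against Control+c-MSST. The causes were not tested.

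Same-numbered libraries were not clearly alike: of 19 same-numbered pairs, 1 had a correlation of deviations over 0.1 (-0.10 to 0.14). With few libraries per group and differences in tissue content, this cannot show whether libraries of the same number shared handling. With the replicate number as a block, 0 kinesins and 0 genes were called in Control+c-MSST against Control, so the calls of Kif26a and Kif5b were lost. Depth limits the low mitotic members, where Kif18b had 0 to 55 counts.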
